A study of Sus scrofa and Bos taurus with 31 samples.

Results

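Pig chromatin regions open in exactly 2 of 8 tissues are described here, by which tissues shared them and by what lay next to them. Peaks of the 16 pig ATAC-seq lists were merged wherever they had at least 1 base in common, and a region was called open in a tissue when the lists of both animals held a peak in it. Of 533944 merged regions, 284109 were open in at least 1 tissue, and 49442 were open in exactly 2, which was 17.4% of the open regions (percent called over all open regions). The members were therefore selected on the peak lists themselves, and the numbers of regions per tissue pair are given as a description, without a test.

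The study mapped functional elements of livestock genomes, and its pig part used 6 month old castrated male Yorkshire animals that were littermates. ATAC-seq uses a transposase that inserts adapters into accessible DNA, and it was run on cryopreserved nuclei of 3 brain tissues (cerebral cortex, hypothalamus and cerebellum) and 5 others (spleen, liver, lung, adipose and skeletal muscle) from the same 2 animals, P348 and P350. No treatment or genotype was compared, and all 16 libraries come from males of 1 breed. Each library held nuclei of a whole piece of tissue, so that more cells of a type and more accessibility per cell cannot be told apart. The lists held from 99960 peaks (skeletal muscle of P350) to 217308 (cerebellum of P348) and covered 64.1 to 156 Mb. The lists themselves hold no read counts, and read totals were not used here. Within a tissue, the regions found in both animals over those found in either (the Jaccard index) were 0.389 to 0.654.

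Open chromatin marks DNA from which nucleosomes have been displaced, mostly promoters, enhancers and insulators. Promoters of housekeeping genes tend to be open in every tissue, whereas distal enhancers are often used by few cell types. Transcription factors recognise short DNA motifs in such regions, and the factors present differ between cell types.

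Sequences from the 5 pairs of tissues furthest above expectation are shown first, to give the DNA that the values below refer to. Each is the middle 200 bp of the span common to the strongest peaks of the 4 libraries, read from the plus strand of Sscrofa11.1, with no annotated coding-transcript exon in it. For liver and spleen they are the region with the highest lowest fold, an intronic region 66147 bp from the nearest coding transcription start site (TSS), that of LOC100739719, then the strongest TSS-proximal region, beside PIK3R1, and a region at CD3E, a component of the T cell receptor complex. Capitals mark matches, on either strand, to the RUNX motif (TGTGGTT) or to the motif AGATAAG, which is bound by factors of the GATA family, and the CD3E window held no match to any of the 20 motifs searched.
LOC100739719 (chr13:82308519-82308718): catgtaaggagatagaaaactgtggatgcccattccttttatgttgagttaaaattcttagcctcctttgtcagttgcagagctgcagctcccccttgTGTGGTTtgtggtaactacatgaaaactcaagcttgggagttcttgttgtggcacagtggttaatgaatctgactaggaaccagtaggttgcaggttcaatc
PIK3R1 (chr16:46502695-46502894): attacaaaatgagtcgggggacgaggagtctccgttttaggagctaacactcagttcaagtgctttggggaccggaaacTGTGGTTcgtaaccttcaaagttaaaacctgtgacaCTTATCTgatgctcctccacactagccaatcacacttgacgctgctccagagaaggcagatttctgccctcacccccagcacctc
CD3E (chr9:45619524-45619723): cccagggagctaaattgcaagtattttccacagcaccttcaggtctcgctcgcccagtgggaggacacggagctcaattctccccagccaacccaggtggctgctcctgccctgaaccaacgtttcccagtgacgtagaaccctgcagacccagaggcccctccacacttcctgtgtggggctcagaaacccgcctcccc
For cerebral cortex and hypothalamus they are the strongest region, in an intron and nearest the TSS of MYO1E, and the strongest TSS-proximal one, at KCNRG, with capitals on SOX (ACAATGG) and E-box (CAGATG) matches.
MYO1E (chr1:112783806-112784005): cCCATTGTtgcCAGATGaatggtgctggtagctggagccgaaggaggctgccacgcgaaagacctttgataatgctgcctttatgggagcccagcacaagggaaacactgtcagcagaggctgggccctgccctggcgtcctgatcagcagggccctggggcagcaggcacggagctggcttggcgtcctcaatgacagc
KCNRG (chr11:17797141-17797340): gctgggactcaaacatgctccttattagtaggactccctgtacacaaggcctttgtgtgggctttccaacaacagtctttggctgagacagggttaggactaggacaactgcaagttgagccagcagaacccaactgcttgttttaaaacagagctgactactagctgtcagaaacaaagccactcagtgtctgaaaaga
For cerebellum and hypothalamus the strongest region was nearest PELI2, for adipose and lung it was nearest KDM4C, and neither window held a match. For liver and skeletal muscle the strongest window lay in an exon and is not printed, and a distal region of MEF2C, 104.461 kb from its TSS, is given with its forkhead match (TGTTTAC) in capitals.
PELI2 (chr1:185441894-185442093): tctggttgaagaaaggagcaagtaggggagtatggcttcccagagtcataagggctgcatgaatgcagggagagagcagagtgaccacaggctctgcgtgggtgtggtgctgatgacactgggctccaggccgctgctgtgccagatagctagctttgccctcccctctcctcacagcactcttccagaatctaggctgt
KDM4C (chr1:215400781-215400980): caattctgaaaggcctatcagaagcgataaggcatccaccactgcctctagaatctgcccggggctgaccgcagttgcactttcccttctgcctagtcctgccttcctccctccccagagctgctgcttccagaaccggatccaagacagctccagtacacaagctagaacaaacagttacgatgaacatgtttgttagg
MEF2C (chr2:96401638-96401837): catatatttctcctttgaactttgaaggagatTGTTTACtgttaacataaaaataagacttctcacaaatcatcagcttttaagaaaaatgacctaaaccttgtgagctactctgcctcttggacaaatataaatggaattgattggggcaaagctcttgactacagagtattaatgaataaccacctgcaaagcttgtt

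The values in these regions are the fold enrichments that the peak caller listed for each library, and the highest in the region is given where a library had several peaks. The LOC100739719 region (chr13:82308464-82308881) was listed at 9.85 and 9.04 in liver of P348 and P350 and at 7.72 and 6.10 in spleen. It also had a peak in 4 libraries of other tissues, each in just 1 animal of a tissue, at 2.65 to 3.997. Of its 200 bp shown above, 51% is soft-masked repeat sequence. The PIK3R1 region (chr16:46502346-46503074), 579 bp from a TSS of this regulatory subunit of phosphoinositide 3-kinase, was listed at 6.25 and 4.47 in liver and at 5.05 and 5.31 in spleen. All 4 values stood above the 3.29 of the only other library with a peak, lung of P348. The CD3E region (chr9:45619315-45619827) overlapped a TSS and was listed at 4.07 and 4.96 in liver, 6.42 and 5.36 in spleen and 3.93 in lung of P350. This region, the SOX10 region and both MEF2C regions described here were chosen after their values were seen.

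The MYO1E region (chr1:112783471-112784125), nearest a gene for a class I myosin, was listed at 11.7 and 12.8 in cerebral cortex and 13.0 and 11.8 in hypothalamus. Its next highest value was 6.90, in cerebellum of P350, where the other animal had no peak. The KCNRG region (chr11:17797066-17797431), 240 bp from the TSS of a regulator of potassium channels, was listed at 13.0 and 12.9 in cortex, 11.03 and 13.5 in hypothalamus and 3.57 in cerebellum of P350. The cerebellum and hypothalamus region with the highest lowest fold had lower values, and this PELI2 one (chr1:185441850-185442169) was listed at 6.25 and 6.55 in cerebellum and at 5.27 and 5.61 in hypothalamus. A TSS-proximal region of TLX2 (chr3:68536970-68537191), a homeobox gene, was listed at 7.44 and 4.86 in cerebellum and at 5.64 and 3.58 in hypothalamus.

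The KDM4C region (chr1:215400638-215401122), nearest a histone demethylase gene, was listed at 5.19 and 4.53 in adipose and 5.52 and 4.26 in lung. It also had a peak in cerebral cortex of P348 at 4.22, close to the lower lung value, and in skeletal muscle of P350 at 3.28. The strongest TSS-proximal region of adipose and lung, at UGT1A6 (chr15:133967428-133969885), reached 3.27 and 3.10 in adipose and 3.69 and 3.11 in lung. It was higher, at 4.58, in spleen of P348, a library of a tissue in which it did not count as open. Its value in liver of P348, 3.63, was also above both adipose values. The strongest liver and skeletal muscle region, in an exon and nearest CREBL2 (chr5:59805844-59806448), was listed at 13.99 and 12.1 in liver, 13.8 and 13.6 in muscle and 2.81 in spleen of P350. PPP1R42 had the strongest TSS-proximal region of that pair (chr4:67782202-67782501), at 9.69 and 6.96 in liver and 8.26 and 5.45 in muscle. It also had a peak in hypothalamus of P350 at 5.15, close to the lower muscle value.

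**Figure D1:**
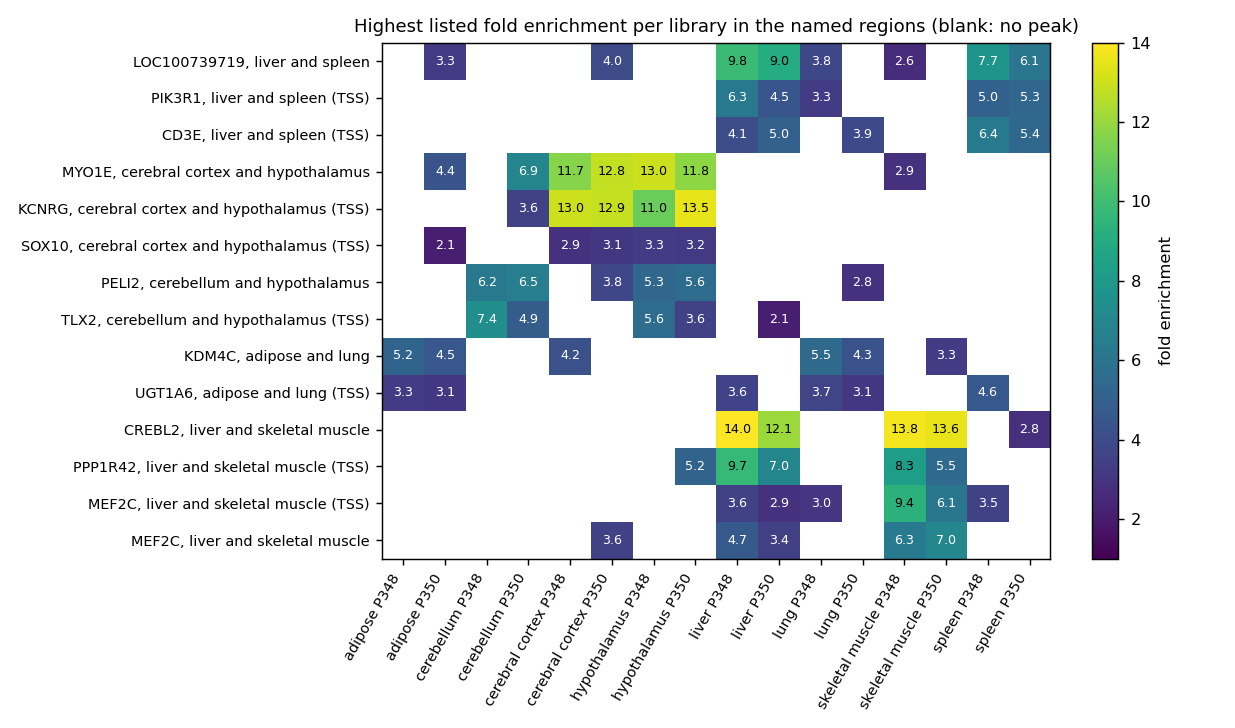
Highest listed fold enrichment (colour and number) of 14 named regions, in rows, in each of the 16 libraries, in columns. Blank cells have no peak, (TSS) marks TSS-proximal regions, and every row has values in the 4 libraries of its pair plus up to 4 scattered values in others.

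The number expected for each pair was the product of a weight per tissue, fitted so that each tissue kept its own total number of members. A ratio above 1 thus means that a pair shared more regions than the totals of its tissues give, and since the totals are fixed, a high pair lowers others. Of the 28 pairs, 11 stood above 1 and 17 below, 4 reached 1.5 or more and 6 were under 0.5. Liver and spleen had the highest ratio, with 1565 regions against 580 expected, or 2.70. Cerebral cortex and hypothalamus followed, with 3641 against 1534, or 2.37. The order of these pairs depended on the setting, and cortex with hypothalamus was first with q-value limits of 0.01 (2.644 against 2.643) and 0.0001 (3.07 against 2.43), with lists of equal length (2.62 against 2.20068), without cerebellum (2.35 against 2.11), in P350 alone and with expected numbers from all open regions (2.33 against 1.36). The next were cerebellum and hypothalamus with 3113 against 1951 (1.596), adipose and lung with 3125 against 2049 (1.53) and liver and skeletal muscle with 1431 against 998 (1.43). The largest pair in number, cerebellum and lung with 5996 regions, was the pair of the tissues with the most members, and its ratio was 1.15.

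At the other end stood the pairs of hypothalamus with peripheral tissues. Hypothalamus and spleen shared 107 regions against 559 expected (0.19), hypothalamus and skeletal muscle 211 against 961 (0.22), and hypothalamus and liver 186 against 748 (0.25). The 3 pairs within the brain had a mean log2 ratio of 0.66 ± 0.59 (SD over 3 pairs) and all lay above 1. The 15 pairs of a brain tissue with another tissue had a mean of -0.84 ± 0.85 (SD), with 2 of 15 above 1, and the 10 pairs outside the brain 0.29 ± 0.55 (SD), with 6 of 10 above 1. Pairs that contain the same tissue share libraries, so these spreads are not replicate errors. Cerebellum with cerebral cortex came out at 1.04, below cerebral cortex with skeletal muscle at 1.32.

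**Figure D2:**
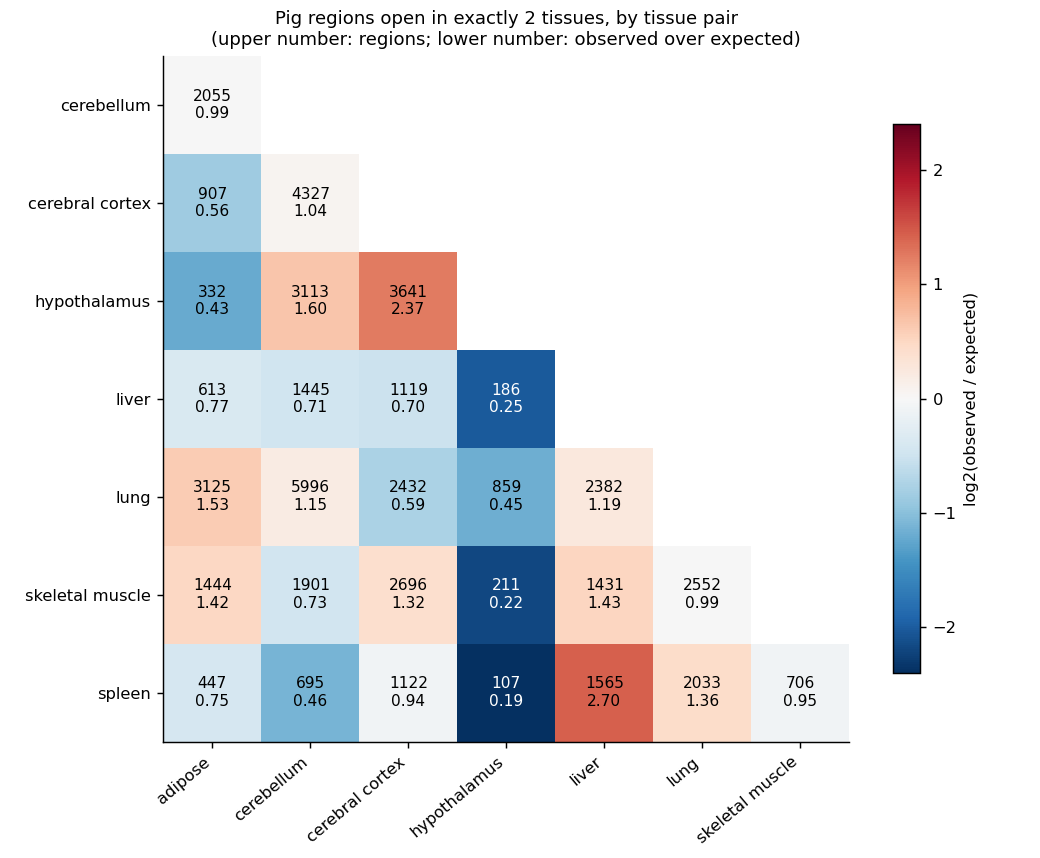
Regions open in exactly 2 tissues for each of the 28 tissue pairs, with the number of regions and its ratio to the expected number in each cell, coloured by the log2 ratio. Liver with spleen (2.70) and cerebral cortex with hypothalamus (2.37) are the reddest cells, and hypothalamus with spleen, muscle and liver (0.19 to 0.25) the bluest.

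The same counts were made in each animal's own lists, with regions merged from its 8 lists and called open by 1 peak. Liver and spleen reached 2.37 in P348 and 1.93 in P350, cerebral cortex and hypothalamus 1.72 and 2.26, and cerebellum and hypothalamus 1.59 and 1.34. Adipose and lung differed more, with 1.14 in P348 and 1.58 in P350, and liver and skeletal muscle had 1.46 and 1.26. In each animal all 5 pairs were above 1, and of the 11 pairs above 1 with both animals 10 were above 1 in each animal alone. The exception was a pair within the brain, cerebellum with cerebral cortex, at 1.13 in P348 and 0.797 in P350. Across the 28 pairs, the log2 ratios of the animals correlated with r = 0.88 and rho = 0.90, as a description, since pairs with a tissue in common share libraries. Liver with spleen and cortex with hypothalamus were higher with both animals than in either one, and hypothalamus with spleen, at 0.46 in P348 and 0.41 in P350, was lower.

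**Figure D3:**
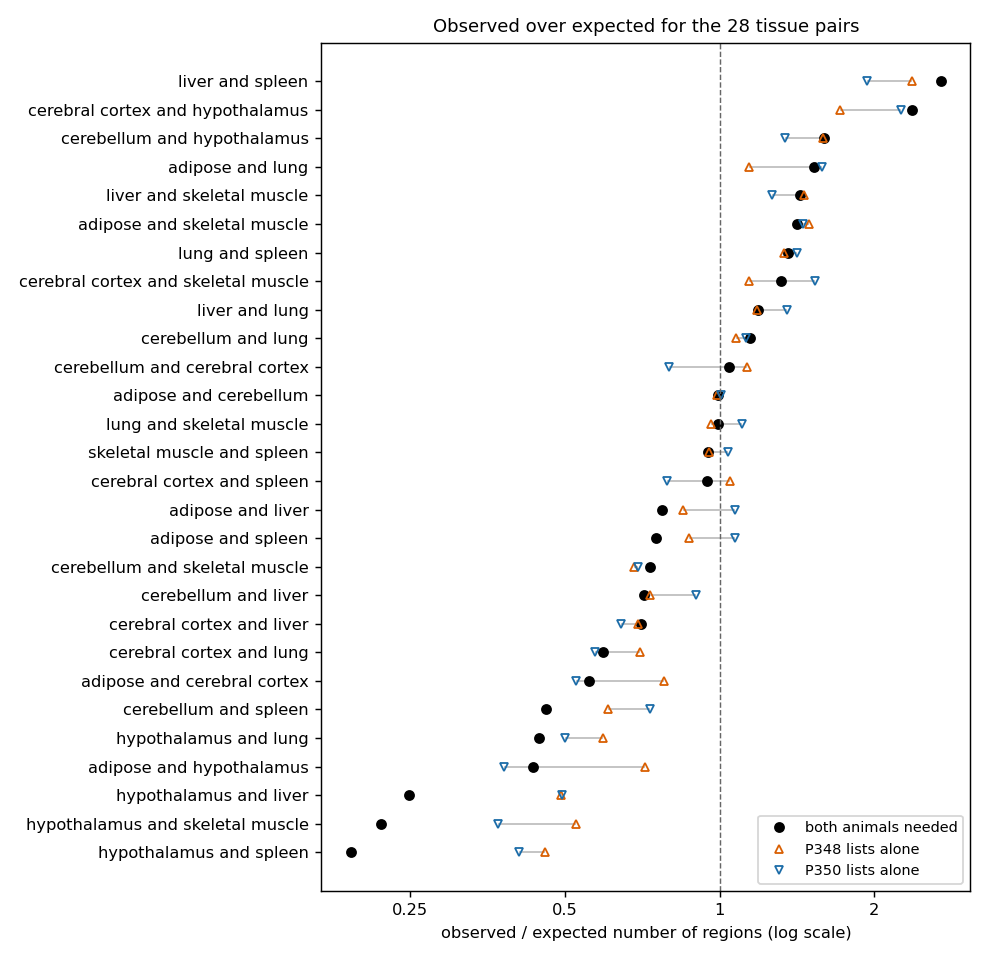
Ratio of observed to expected regions on a log scale for the 28 pairs, in order of the ratio with both animals (black), with the ratios from P348 (upward triangles) and P350 (downward triangles) alone. The first 5 pairs lie to the right of 1 in each animal, and adipose with lung is close to 1 in P348 (1.14).

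Being open in exactly 2 tissues did not mean that no other tissue had a peak. Only 8122 members, or 16.4%, had no peak in any of the 12 libraries of other tissues, while 12610 had a peak in 1 of them and 12355 in 2. Of the liver and spleen regions, 59.5% had a peak in 1 lung library, and of the cortex and hypothalamus regions, 42.9% had a peak in 1 cerebellum library. Among members with no peak elsewhere (a choice made with the data in view), liver and spleen reached 3.16, cerebral cortex and hypothalamus 2.91 and adipose and lung 2.11, and cerebellum and hypothalamus fell to 1.34. With the q-value limit of the peaks lowered to 0.0001, cerebellum and hypothalamus turned to 0.734 and adipose and lung to 0.843, both under expectation. With expected numbers taken from all open regions of each tissue, liver and spleen came to 1.36 and liver and skeletal muscle to 0.979. The 4 peaks behind a member had spans with a common base in 79.7% of members, from 73.6% for adipose and lung to 93.7% for cerebral cortex and hypothalamus among the 5 pairs. Listed strength also differed: the median of the lowest fold over the 4 libraries was 2.62 over all members, 3.41 for cortex and hypothalamus, 3.08 for liver and spleen, and 2.46 for adipose and lung.

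The annotation was not used to choose the members, so their position relative to genes could be tested. Regions with any base at most 2 kb from a coding transcript's start in the RefSeq annotation of Sscrofa11.1 were called TSS proximal. Of the members, 1946 or 3.94% (95% Wilson interval 3.77 to 4.11) were TSS proximal, against 8.19% of all regions open in at least 1 tissue. A further 11.7% overlapped an exon, 37.1% lay in introns, 45.7% were intergenic and 1.53% were near the start of a non-coding transcript. The proximal share was 2.91% of regions open in 1 tissue, 4.93% in 3 tissues, 20.6% in 7 and 62.1% in all 8. The median distance of members to the nearest coding TSS was 52.6 kb.

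Tissue by tissue, the proximal share was higher in regions open in 2 tissues than in those open in 1 in 8 of 8 tissues. The mean difference was 0.923 percentage points ± 0.481 (SD, n = 8 tissues; two-sided exact test flipping the signs of the 8 differences, p = 0.00781, which is the smallest possible with 8 tissues, adjusted p = 0.0117 by Benjamini-Hochberg over 3 tests). Hypothalamus had the largest difference, from 1.12% to 3.12%, and liver the smallest, from 4.71% to 5.24%. This call rested on requiring both animals. With the lists of P350 alone the difference was 0.193 points (exact sign-flip p = 0.25), with those of P348 alone 0.264 (exact sign-flip p = 0.125), and paired within animals as a replicate block 0.229 (exact sign-flip p = 0.148). Regions open in 3 tissues exceeded those in 2 by 0.860 points ± 0.223 (SD, n = 8 tissues), in 8 of 8 tissues (exact sign-flip p = 0.00781, adjusted p = 0.0117), and this kept p = 0.00781 in each animal alone and in the block. Regions open in more tissues were also wider, with a median of 823 bp for 1 tissue, 1223 bp for 2 and 1489 bp for 3, and a member counts for both of its tissues, so the 8 differences are not fully independent. With distance measured from each region's midpoint, another choice made with the data in view, the differences were 0.613 and 0.716 points, each with p = 0.00781 by the exact sign-flip test.

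**Figure D4:**
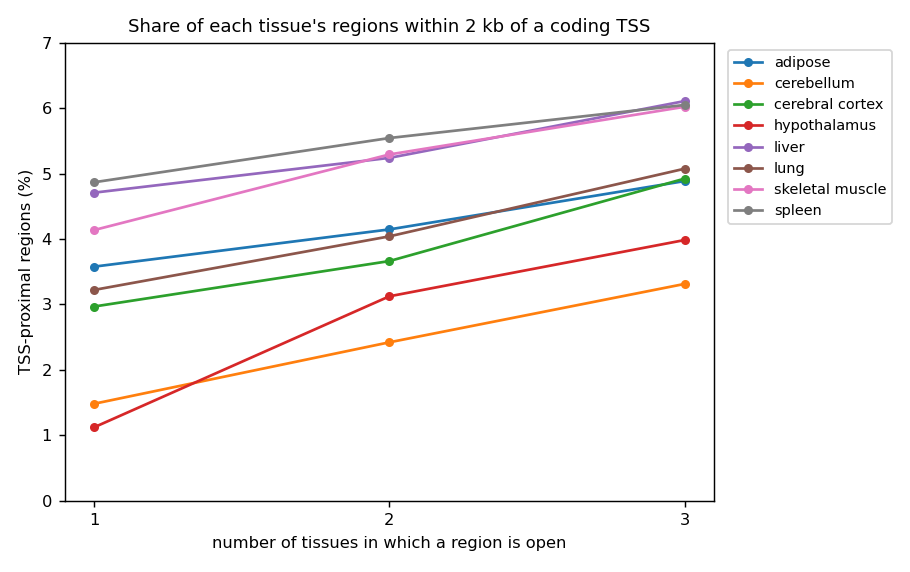
Percentage of each tissue's regions that are TSS proximal, for regions open in 1, 2 and 3 tissues, with 1 line per tissue. All 8 lines go up at both steps, from 1.12% to 4.87% at 1 tissue to 3.31% to 6.11% at 3.

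In each tissue the pair with its best partner was compared with its other members, and the difference was 0.700 points ± 1.03 (SD, n = 8 tissues), positive in 5 of 8 tissues (exact sign-flip p = 0.0938, adjusted p = 0.0938). It turned negative under 5 of the alternative settings, with -2.34 points at a q-value limit of 0.0001 (exact sign-flip p = 0.0234). In the main setting, liver with spleen, cortex with hypothalamus and adipose with lung each entered for both of their tissues. The 8 differences are therefore not independent. Among the 5 pairs the share was 7.34% (6.10 to 8.81) for liver and skeletal muscle, 5.24% (4.24 to 6.46) for liver and spleen, 4.96% (4.25 to 5.78) for adipose and lung, 3.98% (3.39 to 4.67) for cortex and hypothalamus and 1.90% (1.47 to 2.44) for cerebellum and hypothalamus. In the last pair, 71.0% of regions were intergenic, against 29.8% for liver and skeletal muscle, and its median distance to a coding TSS was 188 kb, against 23.2 kb. The window of 300 bp at the centre of its regions was mostly soft-masked repeat sequence in 20.4% of cases, against 10.96% of all members. Cerebellum and lung came close, with 63.0% intergenic, a median distance of 121 kb and 16.4% mostly soft-masked windows. Its TSS-proximal share was lower, at 1.63%. Cerebellum and liver had 56.1% intergenic and 104 kb, and cerebellum and skeletal muscle 40.6% and 58.3 kb. Adipose and lung had a median GC content of 55%, the highest of the 28 pairs, against 49.3% over all members. The other pairs with adipose had 52% to 54.5%.

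Liver and spleen shared regions near lymphocyte genes. Of the 1565 regions, 15 had their nearest TSS in the list of 23 matched lymphocyte genes, or 0.958% (0.582 to 1.58), against 0.239% of all members. Other pairs with spleen had such regions too, with 5 of 447 or 1.12% (0.479 to 2.59) for adipose and spleen and 0.541% (0.302 to 0.966) for lung and spleen. The 15 were spread over 9 genes, and 4 of the 15 were TSS proximal, at CD2, CD3E, IKZF1 and RUNX3. ETS1, a transcription factor of lymphoid cells, had 4 regions, all intergenic, between 39.793 and 341.461 kb from its TSS, and as many each in lung with spleen and adipose with skeletal muscle. The nearest of them (chr9:55551973-55553578) was listed at 3.84 and 4.56 in liver and at 5.74 and 3.77 in spleen. The regions at CD2, an adhesion receptor of T cells, ranged from 3.06 to 4.39 over the 4 libraries. IKZF1 and RUNX3, both lymphoid transcription factors, had 2 regions each, at 2.31 to 3.36 and 3.30 to 5.01. No region of this pair was nearest a gene of the hepatocyte list, which is 0 of 1565 and allows a share of up to 0.192% by a floor of 3 counts and 0.245% by the Wilson interval, so that a difference from the 0.170% of all members was not detectable. For myeloid genes it was 3 regions, or 0.192% (0.0652 to 0.562), against 0.127%.

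The genes nearest to most liver and spleen regions were TBL1XR1 with 6, PIK3R1 with 5, ETS1, SATB1 and ZFP36L1 with 4 each and BCAS1 with 3. TBL1XR1, a subunit of a nuclear corepressor complex, has 136 open regions in all and 36 members over all pairs, so that its 6 were 4.41% of its open regions. For the 6 genes this share ran from 3.45% (ZFP36L1) to 6.52% (BCAS1). The pair made up 0.551% of all open regions, and the genes were picked for having many. SATB1 is a chromatin organiser known from thymocytes, and its 4 regions lay 143 to 320 kb from its TSS, with folds of 2.68 to 5.64. ZFP36L1, an RNA-binding protein that destabilises messenger RNAs, had 4 regions at 87 to 400.2 kb with folds of 3.11 to 5.64. Nearest by TSS is a position, and no region was assigned to a gene it might act on.

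Cerebral cortex and hypothalamus shared regions near glial genes. The glia list was nearest to 27 of 3641 regions, 0.742% (0.510 to 1.08), against 0.332% of all members, over 14 of its 20 genes. QKI, an RNA-binding protein of myelinating cells, had 5 of them, SOX2, a transcription factor of neural progenitors and glia, 4 and NFIA, a factor of astrocyte development, 3. The QKI regions were listed at 2.46 to 6.07, and a region 39.04 kb from SOX2 (chr13:119707516-119708054) at 6.13 and 5.83 in cortex and 4.05 and 5.96 in hypothalamus. SOX10, a transcription factor of oligodendrocytes, had 2, and the one over its TSS (chr5:9890115-9891677) was listed at 2.87 and 3.08 in cortex and 3.28 and 3.19 in hypothalamus. Other pairs had regions nearest glial genes too, with 15 of 2696 or 0.556% (0.337 to 0.916) for cerebral cortex and skeletal muscle. Hypothalamus and skeletal muscle had 2 of 211, or 0.948% (0.260 to 3.39). QKI, with 36 members over all pairs, was nearest to more regions of adipose and lung, 7, than of cortex and hypothalamus. The whole glia list was nearest to 0.256% of adipose and lung regions. In cerebellum and hypothalamus, just 2 of 3113 regions were nearest a glial gene, 0.0642% (0.0176 to 0.234). Synapse genes were nearest to 29 cortex and hypothalamus regions, 0.796% (0.555 to 1.14), an interval that includes the 0.570% of members. RBFOX1 had 6 of these and CSMD1 5. Other pairs had higher synapse shares, with 1.09% for cerebellum and cerebral cortex and 1.48% for cerebral cortex and lung. Hypothalamus and lung had 1.51%, and hypothalamus and liver 3.76%, or 7 of 186. Neuronal transcription factor genes were nearest to 17 cortex and hypothalamus regions, 0.467% (0.292 to 0.746), against 0.508% of members. They were nearest to 21 regions of cerebellum and hypothalamus, 0.675%, and to 57 of cerebellum and lung, 0.951%.

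By gene, KIRREL3 had 9 cortex and hypothalamus regions, ZNF385D 8, CDH8, SEMA6A and TMEM132B 7 each and BRINP1 6. These were 4.86% (SEMA6A) to 7.45% (TMEM132B) of the 94 to 164 open regions nearest each gene, where the pair made up 1.28% of all open regions, and the genes were picked for having many. KIRREL3 and CDH8 encode neuronal cell adhesion proteins, SEMA6A a membrane semaphorin of axon guidance and BRINP1 a neural protein. The strongest SEMA6A region, in an intron (chr2:120604472-120604860), was listed at 9.22 and 10.3 in cortex and at 8.34 and 10.4 in hypothalamus, with no peak in any other library. The strongest CDH8 region (chr6:23500504-23501104), also intronic, was listed at 5.80 and 6.96 in cortex and 5.55 and 6.46 in hypothalamus. None of the regions at these 6 genes was TSS proximal.

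Cerebellum and hypothalamus regions were often several to a gene and far from its start. KCNT2, a sodium-activated potassium channel gene on an unplaced scaffold, was nearest to 15 of them, SLC10A2 to 14, TENM3 to 13, NCAM2 and TENM4 to 12 each and GPC6 to 11. TENM3 and TENM4 are teneurins, transmembrane proteins of neuronal wiring, and NCAM2 is a neural cell adhesion molecule. The 12 NCAM2 regions were all intergenic and lay 376 to 1893 kb from its TSS, and 6 of them had no peak in any other library. Their folds were 2.47 to 4.81. The 14 regions nearest SLC10A2, the bile acid transporter of the ileum, lay 214 to 1135 kb away, all intergenic, at 2.25 to 4.36. Over the genome 46460 regions were open in cerebellum alone and 3026 in hypothalamus alone, and the numbers around these genes were 118 against 4 at KCNT2, 79 against 5 at SLC10A2, 243 against 3 at TENM3, 150 against 3 at NCAM2, 99 against 5 at TENM4 and 81 against 1 at GPC6. Of all regions of this pair, 30.003% had another of the same pair within 50 kb, against 22.6% of all members, and 20.3% of their neighbouring members belonged to it although it makes up 6.30% of members, 3.22 times that share. The corresponding values were 2.86 times for liver and skeletal muscle, 2.31 for liver and spleen, 2.08 for adipose and lung and 1.66 for cortex and hypothalamus. It was higher in other pairs, up to 3.92 times for cerebellum and spleen. In cerebellum and lung, 39.1% of regions had another of the same pair within 50 kb. Of their neighbouring members, 23.1% belonged to that pair, 1.91 times its share of members.

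In adipose and lung, no region was nearest a gene of the adipocyte list, 0 of 3125, which allows a share of up to 0.0960% by a floor of 3 counts and 0.123% by the Wilson interval, with 0.101% of all members between them. There, 5 were nearest an epithelial gene, 0.160% (0.0684 to 0.374), against 0.0991%. Endothelial genes were nearest to 10, 0.320% (0.174 to 0.588), against 0.182%. HOX genes, which set position along the body axis, were nearest to 5 regions, 0.160% (0.0684 to 0.374), against 0.0324% of members, at HOXA2, HOXB2, HOXB8, HOXB13 and HOXC4, with folds of 2.202 to 3.36. The genes with the most regions were CASTOR2 and CDH4 with 9 each, RBFOX1 with 8 and CAMTA1, FAM135B and NAV3 with 7. CASTOR2 belongs to the arginine sensors of the mTORC1 pathway, CDH4 is a cadherin, RBFOX1 a neuronal splicing factor and CAMTA1 a calmodulin-binding transcription activator. Over the regions at these 6 genes the folds did not exceed 4.10.

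Liver and skeletal muscle had GSE1 with 6 regions, PDE4D and PLPP3 with 5 and CITED2, KCNJ12 and MEF2C with 4 each. These were 2.34% (PDE4D) to 14.3% (KCNJ12) of the open regions nearest each gene. The pair made up 0.504% of all open regions, and the genes were picked for having many. PDE4D hydrolyses cyclic AMP, KCNJ12 is an inward rectifier potassium channel and CITED2 a transcriptional coregulator. One MEF2C region (chr2:96218529-96219405), over a TSS of this factor of muscle and neuronal genes, was listed at 3.57 and 2.86 in liver, and 9.36 and 6.09 in muscle. Its distal region shown above (chr2:96401388-96403479) was listed at 4.69 and 3.45 in liver and 6.32 and 7.02 in muscle, so that muscle was higher than liver in both. The region over the TSS also had peaks in lung and spleen of P348, at 3.05 and 3.51. The distal region also had a peak in cerebral cortex of P350, at 3.55. Each of these values was above the liver value of P350 in the same region. Of the other MEF2C regions, the one 8.353 kb from the TSS was higher in liver, at 6.11 and 3.69 against 2.62 and 3.59, and the one 20.341 kb from it higher in muscle, at 2.68 and 2.72 against 3.51 and 3.42. A CITED2 region 175.748 kb from its TSS (chr1:24979211-24979904) was listed at 10.8 and 6.27 in liver and 8.35 and 5.64 in muscle, and a PDE4D intronic one (chr16:38295581-38297800) at 8.14 and 6.19 in liver and 5.86 and 11.6 in muscle. Muscle fibre genes were nearest to 1 region, 0.0699% (0.0123 to 0.395), against 0.0930% of members, and hepatocyte genes to 2, 0.140% (0.0383 to 0.508), against 0.170%. HOX genes were nearest to 3, or 0.210% (0.0713 to 0.615), at HOXA10, HOXB2 and HOXD1, and to 3 liver and spleen regions, or 0.192% (0.0652 to 0.562), at HOXA13, HOXB6 and HOXB8, against 0.0324% of members. Smooth muscle and stroma genes, the last list, were nearest to 0.0639% to 0.257% of the regions of the 5 pairs, against 0.156% of all members. The lists cover a small part of each pair.

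Motif matches were counted in the 300 bp at the centre of each region, on both strands, as a description. RUNX (TGTGGTT) was found in 10.8% (9.36 to 12.4) of liver and spleen windows, against 6.57% of regions open in liver alone, 13.4% of those open in spleen alone, 6.33% of all members and 6.30% of all open regions. The PU.1 type motif (GAGGAAGT), bound by a factor of myeloid and B cells, gave the same order, with 4.73% (3.78 to 5.90) against 1.97% in liver alone, 5.64% in spleen alone, 2.29% of members and 2.18% of open regions. HNF4 (CAAAGTCCA), the letters of a hepatocyte factor, were found in 0.639% (0.347 to 1.17) of the pair, 1.64% of liver alone, 0.359% of spleen alone and 0.451% of open regions. Liver and spleen regions were thus nearer to spleen than to liver in RUNX and PU.1 letters, and their HNF4 interval lay below the liver value.

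SOX (ACAATGG) was found in 8.05% (7.21 to 8.98) of cortex and hypothalamus windows, above the 4.13% (3.86 to 4.41) of cortex alone and the 5.16% (4.42 to 6.002) of hypothalamus alone, whose intervals do not overlap that of the pair. All members had it in 4.53% and all open regions in 4.41%. AP-1 (TGACTCA) went the other way against cortex, with 4.83% (4.18 to 5.58) in the pair and 9.04% in cortex alone, and 6.34% of open regions. Liver and skeletal muscle windows had HNF4 in 1.19% (0.743 to 1.89), between muscle alone at 0.366% and liver alone at 1.64%, and MEF2 (CTAAAAATA) in 1.33% (0.852 to 2.06), between liver alone at 0.665% and muscle alone at 2.29%. MEF2 was found in 0.814% of open regions. In cerebellum and hypothalamus, the CTCF core (AGGGGGCG) was found in 0.546% (0.341 to 0.873), against 1.04% of members and 1.62% of open regions, and the ETS core (CCGGAAG) in 0.932% (0.649 to 1.33), against 1.61% and 2.11%. In adipose and lung, POU octamers (ATGCAAAT) were found in 0.768% (0.517 to 1.14), an interval that overlaps those of adipose alone at 0.910% (0.725 to 1.14) and lung alone at 1.28% (1.12 to 1.46), against 1.62% of members and 1.51% of open regions. Intervals cover counting error over regions only.

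**Figure D5:**
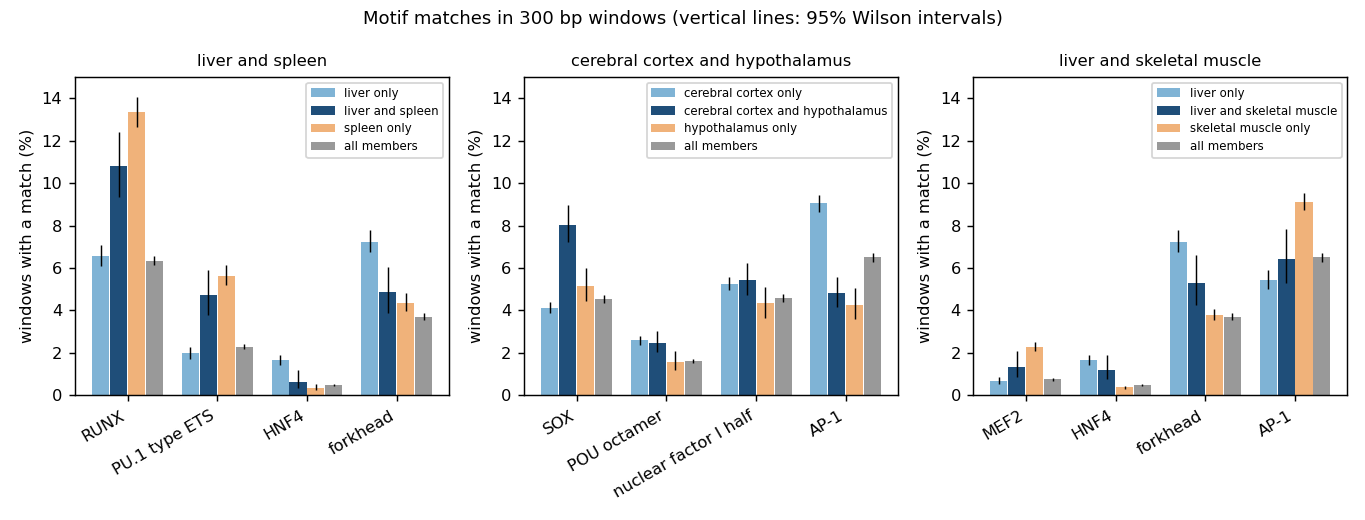
Percentage of 300 bp windows with a match to selected motifs for 3 pairs, beside regions open in each of the tissues alone and all members, with 95% Wilson intervals as vertical lines. RUNX and PU.1 in liver and spleen lie near the spleen value, SOX in cortex and hypothalamus (8.05%) lies above both tissues alone, and HNF4 and MEF2 in liver and skeletal muscle lie between the tissues.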

How the data were processed

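ATAC-seq peak lists of 8 pig tissues from 2 animals were analysed, and lists of other species were not used. Per the study's methods and the submitters' processing notes, the authors trimmed reads with Trim Galore 0.4.5, aligned them with BWA 0.7.17 to Sscrofa11.1 (susScr11), filtered them with SAMtools 1.10 and Picard 2.18.17, and called broad peaks with MACS2 in each library at a q-value limit of 0.05. Whether reads were shifted for the transposase is not given in the sources used here. The deposited columns used were the fold enrichment of each peak, a ratio to local background computed by MACS2, and its −log10 q-value, whose lowest listed value was 1.0003. That value lies past the stated q-value limit, so the limit that made these lists is uncertain. Broad peaks, library depth and the cut on q all set which regions exist, and peak lists hold no read counts, so the study's read totals were not used here and a missing peak is not a measured 0.

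Peaks of 16 libraries were merged, and expected pair numbers were fitted iteratively to the tissue totals. Genes came from NCBI annotation release 106 (20674 coding genes, 47135 coding TSS, 270 sequence names matched), and sequences from the RefSeq genome of that build. Intervals are 95% Wilson intervals and cover counting error only. Differences in TSS-proximal share over tissues were tested by exact sign flips, adjusted by Benjamini-Hochberg over 3 tests. The tissues share members and the same 2 animals, so p-values measure the spread between tissues and not between animals. The text names the 5 pairs with the highest ratio, the 6 genes nearest to most regions of each, and the region with the highest lowest fold, overall and TSS proximal. Ties between genes went by symbol, so the last gene named for a pair can have as many regions as genes left out. BCAS1 had 3 regions, as did CDH2, BRINP1 had 6, as did FGFR2, and GPC6 had 11, as did PTPRD. The members, 12 gene lists and 20 motifs were chosen with earlier results of these data known. All list genes matched except 1 of 24 lymphocyte genes and 16 of 52 HOX genes.

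The animals pair the libraries across tissues. The mean Jaccard index of lists from different tissues was 0.309763 within an animal and 0.309978 between animals. Scripts were tested on simulated data and used Python 3.11.15, numpy 2.4.6, pandas 2.3.3, scipy 1.17.1 and matplotlib 3.10.9.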

Additional observations from a re-analysis of the deposited data

How the results depend on the processing

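The share of open regions that were members was 15.3% with q under 0.0001, 13.1% with peaks covering 50% of the region, 18.4% without cerebellum and 17.1% to 18.1% without either animal. The excess of brain pairs over brain and other pairs, 1.502 on the log2 scale, was 1.81 and 2.34 with q under 0.01 and 0.0001, 1.55 with lists of equal length, 1.45 with peaks up to 500 bp apart merged, 1.79 at 50% cover, 2.02 without cerebellum, 1.80 with expected numbers from all open regions, and 1.02 to 1.03 without either animal. Choices made after seeing the data gave 2.52 with no peak in another tissue and 1.69 where the spans share a base. The TSS-proximal share of members, 3.94%, was 5.44% and 8.95% with q under 0.01 and 0.0001, 5.09% with lists of equal length, 10.9% at 50% cover, 4.42% without cerebellum, 2.12% within 500 bp, 3.12% from the midpoint (chosen after seeing the data) and 2.92% to 3.11% without either animal.

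The difference between 2 tissues and 1 was 0.193 to 0.264 points without either animal. The best-partner difference turned to -0.51 with q under 0.01, -2.34 with q under 0.0001, -0.064 with lists of equal length, -0.040 without cerebellum and -0.40 with expected numbers from all open regions. With q under 0.0001 the ratio was 0.734 for cerebellum and hypothalamus and 0.843 for adipose and lung, and with expected numbers from all open regions 0.979 for liver and skeletal muscle. The causes were not tested.

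With the replicate block, the mean of values paired within each animal, the brain excess was 1.03, the TSS-proximal share 3.01% and the difference between 2 tissues and 1 0.229 points, which lost its call. No other call changed. The block and each animal alone count a tissue open from 1 list.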
